A study of Mus musculus with 28 samples.

Results

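Smooth muscle cultures kept at low oxygen were compared with the same cultures at atmospheric oxygen, using 7 of the 28 RNA-seq libraries of the series. The 7 were chosen by medium and oxygen label, not by any measured value. The cells are O9-1, a mouse cranial neural crest cell line, so every library comes from 1 line. Both groups received the same smooth muscle medium, DMEM with 10% fetal calf serum and penicillin/streptomycin, for 3 days. The normoxic group (4 libraries) was kept at 21% O2 and the hypoxic group (3 libraries) at 0.5% O2. The other 21 libraries cover the same oxygen levels in proliferation, chondrocyte and osteoblast media and were used only where the change was set beside theirs. The labels do not say that replicates are separate cultures, so the p-values measure the spread between these libraries, which may be technical. Of 21888 protein-coding genes, 12355 had enough counts to be tested. All levels are CPM, counts per 1e+06 counts after scaling by TMM (edgeR's trimmed mean of M-values).

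Cells sense oxygen through prolyl hydroxylases of the EGLN family, which use oxygen to mark the alpha subunits of hypoxia-inducible factor (HIF) for capture by VHL and degradation. When oxygen is scarce the subunits persist, pair with ARNT and bind the core sequence ACGTG near genes for glucose uptake, glycolysis, angiogenesis and the hydroxylases themselves. Cranial neural crest gives rise to bone, cartilage and the smooth muscle of cranial vessels. Smooth muscle cells carry a contractile apparatus of alpha smooth muscle actin (Acta2), myosin and calponins, and many of its genes are controlled by serum response factor (SRF) at CArG boxes. They also lay down collagen and elastic fibres.

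The label was checked against its markers. At 21% O2 the libraries held Acta2 at 3147, 2878, 3144 and 2770.3 CPM and Tagln, an actin-binding marker of smooth muscle, at 274, 249.6, 273 and 278 CPM. Markers of mature smooth muscle were low even there: Cnn1 was at 6.71, 4.38, 5.23 and 4.93 CPM, Myh11 at 1.12, 1.28, 0.854 and 2.44 CPM, and Des and Myocd did not pass the filter on low counts. At 0.5% O2 Acta2 was at 18.7, 14.1 and 30.2 CPM and Tagln at 13.8, 14.5 and 11.4 CPM. The hypoxic libraries are therefore named by their medium, not by a cell type. In a fit over all 28 libraries, the mean Acta2 level was 22.7 CPM in smooth muscle medium at 0.5% O2, 30.6 CPM in proliferation medium at 0.5% O2 and 43.8 CPM in proliferation medium at 21% O2. In bulk RNA, fewer cells of a type and less RNA per cell cannot be told apart.

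The 2 groups differed in what their reads came from, and this bears on every result. Protein-coding genes took 96.02 to 96.3% of all counts at 21% O2 and 80.1 to 81.4% at 0.5% O2, which left 24.7 to 27.8 and 15.9 to 20.4 protein-coding counts per library in units of 1e+06. The mitochondrial ribosomal RNAs took 0.0597 to 0.0729% against 11.6 to 13.3%, and pseudogenes 0.944 to 1.04% against 3.23 to 3.45%. Rn7sk, a small nuclear RNA without a poly(A) tail, took 0.000750 to 0.000767% against 0.0613 to 0.0815% in libraries labelled as poly(A) RNA. The top 10 protein-coding genes held 6.48 to 6.76% of protein-coding counts at 21% O2 and 20.3 to 20.7% at 0.5% O2. Genes encoded in mitochondria and pseudogenes were left out before scaling. The part of this shift in the changes of single genes was not tested. The labels give 1 protocol for all libraries, and in these data a difference in the preparation or counting of the 3 hypoxic libraries cannot be told apart from the oxygen level.

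Most expressed genes changed. At an adjusted p under 0.05, 9637 of 12355 genes were called (78% of those tested), of which 4349 (35.2%) were higher and 5288 (42.8%) lower at 0.5% O2. Changes of at least 2-fold were found in 2579 of the called genes on the higher side (20.9% of those tested) and in 3271 on the lower side (26.5%). The libraries of both groups did not overlap in CPM for 9496 genes (76.9%). Levels correlated at 0.990 to 0.992 among normoxic libraries, 0.955 to 0.962 among hypoxic libraries and 0.779 to 0.805 between the groups (Pearson's r over genes, which are not independent).

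How many genes count as higher rests on the scaling. With TMM, DESeq2's size factors or the upper quartile, 4234 to 4489 genes were higher and 5144 to 5423 lower. Scaling to the total of the genes left in gave 1577 higher and 9160 lower, and scaling to the total of all deposited counts gave 1278 higher and 9744 lower. The median log2 fold change over all tested genes was -0.16 with TMM, -1.36 with the first total and -1.599 with the second, a shift of -1.44 from TMM to the second. Of the 9637 called genes, 6422 (66.6%) were called the same way under all 5 scalings, 1278 higher (10.3% of the genes tested) and 5144 lower (41.6%). Of the 5288 falls with TMM, 5144 were called under every scaling tried, and of the 4349 rises, 1278 were.

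**Figure D1:**
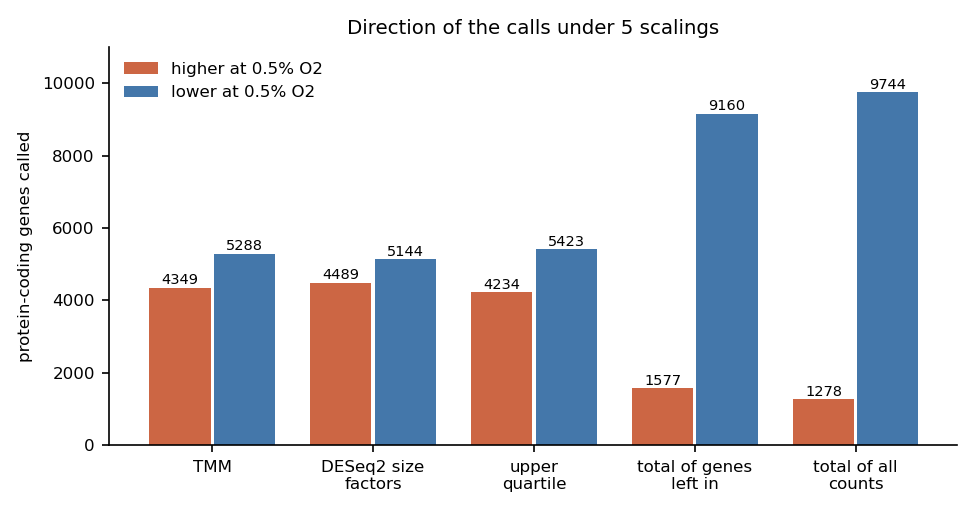
Number of protein-coding genes called higher (red bars) and lower (blue bars) at 0.5% O2 under each of 5 scalings, counted at an adjusted p under 0.05 in edgeR. The first 3 scalings give 4234 to 4489 higher genes, and scaling to total counts gives 1577 or 1278.

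Among genes with at least 10 mean counts in both groups, the largest rises included a keratin, a signalling peptide and genes of glucose and nucleoside metabolism. Krt19 (ENSMUSG00000020911, chr11:100140810-100148665 in GRCm38), an intermediate filament protein best known from epithelia, was at 0.447, 0.468, 0.347 and 0.429 CPM at 21% O2 and 153, 182 and 179 CPM at 0.5% O2, with no overlap between the groups (log2 fold change 8.64 ± 0.13 (SE), adjusted p = 4.29e-16). Of 12 epithelial markers 3 were tested, and the other two passed the filter through the normoxic group only. Krt7 fell (-3.04), and Cdh1 fell 8.08-fold on 3 hypoxic counts (95% counting interval 2.69 to 39.8). Epcam and Krt8 stayed under the filter. Adm2, a vasodilating peptide of the calcitonin family, was at 0.252, 0.345, 0.427 and 0.322 CPM at 21% O2 and 70.1, 85.2 and 66.6 CPM at 0.5% O2 (7.76 ± 0.17 (SE), adjusted p = 3.81e-15). Upp1, which splits uridine into uracil and ribose phosphate, was at 1.12, 0.468, 0.560 and 0.590 CPM at 21% O2 and 122, 142 and 129 CPM at 0.5% O2 (7.59 ± 0.18 (SE), adjusted p = 7.26e-15). Car12, a membrane carbonic anhydrase, rose by 7.17, and Atg9b, a member of the family of autophagy lipid scramblases, by 6.77 on the log2 scale. Krt19, Adm2, Upp1, Car12 and Atg9b were chosen among genes with no overlap between the groups and 1 sign under every scaling. Both traits are conditions of that choice, not results.

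Contractile and matrix genes were among the largest falls of genes with at least 10 mean counts in both groups. Igsf10, a secreted immunoglobulin superfamily protein (ENSMUSG00000036334, chr3:59316735-59344394 in GRCm38), was at 299, 308, 284 and 292 CPM at 21% O2 and 1.42, 0.102 and 1.68 CPM at 0.5% O2. It passed the filter through the normoxic group only, the lowest hypoxic value rests on 1 count in the second library, and the groups lay far apart (log2 fold change -8.05 ± 0.23 (SE), adjusted p = 1.1e-13). Acta2 (ENSMUSG00000035783, chr19:34241090-34255590) was at 3147, 2878, 3144 and 2770.3 CPM at 21% O2 and 18.7, 14.1 and 30.2 CPM at 0.5% O2 (-7.15 ± 0.22 (SE), adjusted p = 1.24e-11). Postn, which encodes the matrix protein periostin, was at 3980.3, 4279, 4363 and 3782 CPM at 21% O2 and 40.01, 40.1 and 44.96 CPM at 0.5% O2 (-6.62 ± 0.10 (SE), adjusted p = 4.29e-16). Col11a1 fell by 7.95, Myl9, the regulatory light chain of smooth muscle myosin, by 7.11, and Mylk, the kinase that phosphorylates this chain, by 6.38 on the log2 scale. Ccdc80, a secreted matrix-associated protein, fell by 6.49 and Penk, the enkephalin precursor, by 6.41.

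The largest differences in level, as opposed to fold, were rises in Eef1a1 and Eef2, which are elongation factors of translation, in Vim (vimentin), Tpt1, Rplp0 and Pgk1, and falls in collagens, Postn and Acta2. Vim, the intermediate filament of mesenchymal cells, was at 7277, 6839.7, 7519.6 and 6687 CPM at 21% O2 and 53557, 58163 and 50376 CPM at 0.5% O2 (log2 fold change 2.93 ± 0.076 (SE), adjusted p = 2.31e-14). Its transcript has no near-identical copy elsewhere in the annotation. Eef1a1 was at 7046, 6818, 7578 and 7229 CPM at 21% O2 and 78111, 87229 and 83755 CPM at 0.5% O2 (3.53 ± 0.073 (SE), adjusted p = 2.83e-15), and near-identical copies cover 87.7% of its transcript.

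Of 12 genes for HIF subunits and oxygen sensors, 11 were tested, 5 rose and 4 fell, near the 35.2% higher and 42.8% lower over all tested genes. The prolyl hydroxylases Egln1 and Egln3 rose under all 5 scalings. Egln1 was at 52.8, 56.9, 56.9 and 55.8 CPM at 21% O2 and 757, 672 and 639.5 CPM at 0.5% O2 (log2 fold change 3.63 ± 0.081 (SE), adjusted p = 4.94e-15), and Egln3 at 16.4, 15.6, 13.2 and 17.9 CPM at 21% O2 and 140.2, 143 and 159 CPM at 0.5% O2 (3.23 ± 0.11 (SE), adjusted p = 3.44e-13). Hif1a, the alpha subunit of HIF-1, was at 160.2, 171, 174 and 134 CPM at 21% O2 and 90.8, 85.3 and 85.7 CPM at 0.5% O2 and fell (-0.87 ± 0.096 (SE), adjusted p = 6.88e-07). Epas1, the alpha subunit of HIF-2, was at 0.168, 0.443, 0.240 and 0.509 CPM at 21% O2 and 1.12, 0.406 and 0.186 CPM at 0.5% O2 and was not called (0.79 ± 0.71 (SE), adjusted p = 0.316). Vhl was at 35.5, 36.6, 36.1 and 37.8 CPM at 21% O2 and 36.9, 34.8 and 37.1 CPM at 0.5% O2, where the groups overlapped (-0.008 ± 0.093 (SE), adjusted p = 0.939). Hif1an, which hydroxylates the transactivation domain of HIF, fell by 1.44, Arnt2 by 1.41 and Cited2 by 0.58, while Egln2 rose by 0.96, Arnt by 0.57 and Siah2 by 1.51. Scaled to the total of the genes left in, Arnt was at -0.63 and Egln2 at -0.24. The list's median, 0.57, is the value of 1 gene and was -0.0287 without the first hypoxic library. RNA levels say nothing of the amount of HIF protein.

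Most HIF target genes were higher at 0.5% O2. Of 45 members, 44 were tested, 34 were higher, 4 lower and 6 were not called, with a median log2 fold change of 2.49, beside 35.2% higher, 42.8% lower and a median of -0.16 over all tested genes. 27 rose and 4 fell under all 5 scalings, and 5 passed the filter through 1 group only (Car9 and Ndufa4l2 through the hypoxic group, Ppp1r3b, Ppp1r3c and Rora through the normoxic group). Their summed share was 0.202% ± 0.00584 (SD, n = 4) of protein-coding counts at 21% O2 and 0.637% ± 0.00996 (SD, n = 3) at 0.5% O2. Bnip3, a mitophagy receptor, was at 31.02, 31.97, 34.7 and 22.8 CPM at 21% O2 and 601, 612 and 674 CPM at 0.5% O2 (log2 fold change 4.38 ± 0.12 (SE), adjusted p = 4.99e-14). Ankrd37, an ankyrin repeat protein, was at 1.06, 0.788, 1.36 and 0.965 CPM at 21% O2 and 64.4, 47.4 and 59.6 CPM at 0.5% O2 (5.77 ± 0.17 (SE), adjusted p = 1.34e-13). Vegfa, the endothelial growth factor, was at 37.8, 33.6, 37.7 and 40.6 CPM at 21% O2 and 391, 277 and 389 CPM at 0.5% O2 (3.24 ± 0.12 (SE), adjusted p = 1.04e-12). Each hypoxic library lay above each normoxic one for all 3 genes. Near-identical copies in 5 other genes cover 94.2% of the Bnip3 transcript. Exons of other genes on the opposite strand overlap 26.4% of the Ankrd37 exon bases. The levels of these genes, Bnip3 and Ankrd37, are therefore uncertain.

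Other targets rose as well. Adm (adrenomedullin) rose by 4.02, Ndrg1 by 4.37, Ddit4, an inhibitor of mTORC1, by 4.65 and the transcriptional repressor Bhlhe40 by 3.29 on the log2 scale. P4ha1, the catalytic subunit of collagen prolyl hydroxylase, was at 88.5, 86.6, 90.5 and 98.4 CPM at 21% O2 and 1429, 1523 and 1451 CPM at 0.5% O2 (4.01 ± 0.077 (SE), adjusted p = 2e-15). Car9, the carbonic anhydrase used as a marker of hypoxic tissue, was at 0.112, 0.0246, 0.347 and 0.0268 CPM at 21% O2 and 11.2, 12.6 and 11.3 CPM at 0.5% O2 (6.48 ± 0.47 (SE), adjusted p = 5.26e-09), and Ndufa4l2, a complex IV-related protein, at 0.0559, 0.123, 0 and 0 CPM at 21% O2 and 5.84, 9.95 and 6.05 CPM at 0.5% O2 (7.16 ± 0.61 (SE), adjusted p = 2.98e-08). Both passed the filter through the hypoxic group only and were under 1 CPM in each normoxic library. The change was 7.65 for Car9 without the third normoxic library and 8.28 for Ndufa4l2 without the second. The 4 members that fell were Loxl2 (-2.83), Ppp1r3c (-1.55), Pfkfb4 (-1.07) and Ppp1r3b (-1.04). Loxl2 is a lysyl oxidase of the matrix, Pfkfb4 sets the level of a fructose bisphosphate that drives glycolysis, and Ppp1r3b and Ppp1r3c direct a phosphatase to glycogen. Cxcr4 (-0.014), Angptl4 (0.51), Rora (-0.035), Narf (-0.055), Stc2 (0.094) and Wsb1 (0.41) were not called.

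Most genes that take up glucose and turn it into lactate were higher at 0.5% O2. Of 29 members, 28 were tested, 22 were higher (16 under all 5 scalings) and 3 lower, with a median of 2.49, beside 35.2% higher and 42.8% lower over all tested genes. Their share was 0.369% ± 0.0119 (SD, n = 4) of protein-coding counts at 21% O2 and 4.36% ± 0.118 (SD, n = 3) at 0.5% O2. Aldoa is counted by a minor identifier, and its main gene is not analysed here. Slc2a1, the glucose transporter GLUT1, was at 30.2, 31.5, 33.9 and 32.4 CPM at 21% O2 and 489, 604 and 548 CPM at 0.5% O2 (log2 fold change 4.10 ± 0.089 (SE), adjusted p = 3.81e-15). Ldha, the lactate dehydrogenase subunit that favours lactate, was at 195, 183, 182 and 207 CPM at 21% O2 and 2018, 2156 and 2218 CPM at 0.5% O2 (3.48 ± 0.078 (SE), adjusted p = 5.09e-15). Its partner Ldhb fell by 0.20. Hk2, which phosphorylates glucose, was at 8.86, 9.57, 7.52 and 6.38 CPM at 21% O2 and 32.4, 36.8 and 51.7 CPM at 0.5% O2 (2.31 ± 0.17 (SE), adjusted p = 7.09e-09), and Pdk1, which holds pyruvate back from the mitochondrion, at 37.2, 38.1, 33.9 and 32.01 CPM at 21% O2 and 201, 183 and 194 CPM at 0.5% O2 (2.45 ± 0.086 (SE), adjusted p = 8.09e-13). Pdk2 (-0.47) and Pdk4 (-0.995), kinases of the same family, fell. Pfkp, a phosphofructokinase, was at 47.3, 47.2, 44.9 and 38.6 CPM at 21% O2 and 47.3, 59.3 and 50.3 CPM at 0.5% O2 and was not called (0.23 ± 0.11 (SE), adjusted p = 0.0623). It was called higher without the first hypoxic library (0.29, adjusted p = 0.0269) and with DESeq2's size factors (0.27, adjusted p = 0.0315), and lower when scaled to the total of all counts (-1.21).

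Pgk1 and Gapdh, enzymes of the lower part of glycolysis, showed the largest rises of the list. Pgk1 was at 192, 173, 170.1 and 178 CPM at 21% O2 and 31741, 33593 and 34417 CPM at 0.5% O2 (log2 fold change 7.55 ± 0.087 (SE), adjusted p = 2.72e-17), and Gapdh at 11.6, 10.1, 7.93 and 18.4 CPM at 21% O2 and 2120.2, 4708 and 2937 CPM at 0.5% O2 (8.08 ± 0.47 (SE), adjusted p = 9.03e-06). The normoxic Gapdh level is low for a gene that every cell uses. Near-identical copies in 37 other genes cover 87.96% of the Gapdh transcript, and copies in 4 other genes cover 68.8% of Pgk1, so reads that fit several places can be lost or split in counting. In the fit over all libraries the mean Gapdh level was 13.4 CPM in normoxic and 3521 CPM in hypoxic smooth muscle medium, and 22.7 to 313 CPM in the other 6 groups. Both values are therefore uncertain. Without the members that share sequence in this way, 16 of the 20 left in the list were higher and 2 lower, with a median of 1.98. Among HIF targets, 28 of 37 were higher and 3 lower, with a median of 1.97.

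**Figure D2:**
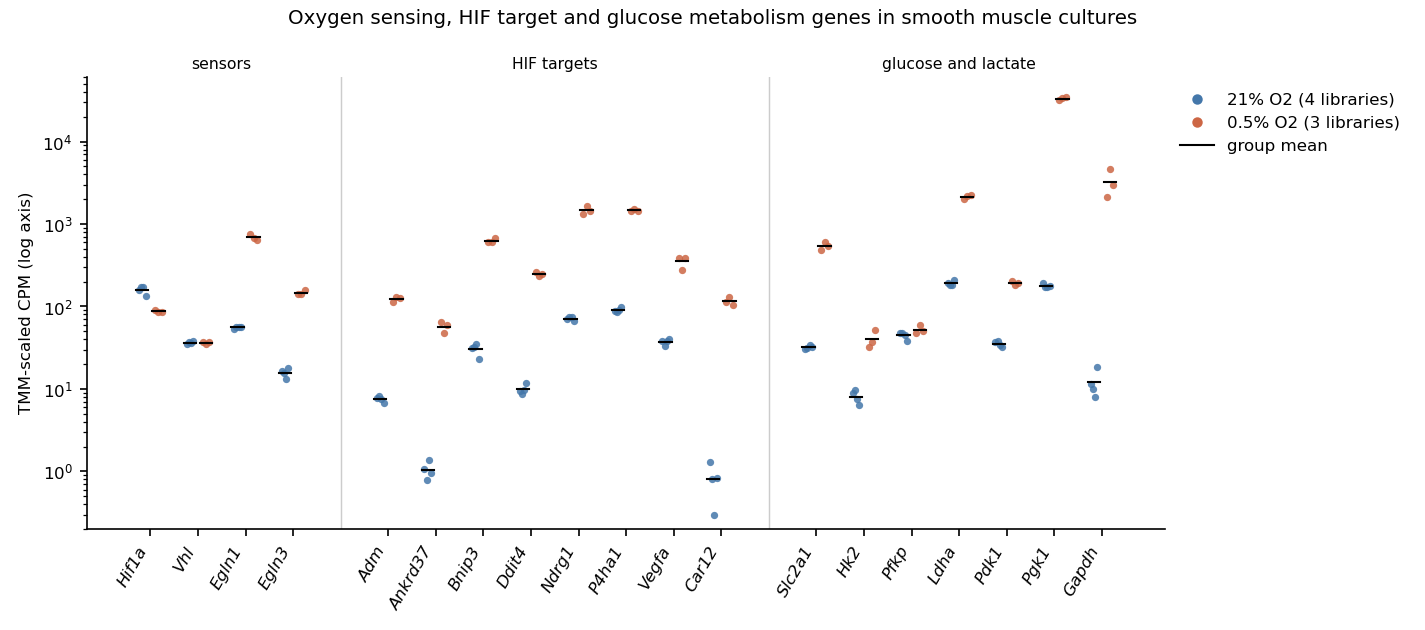
TMM-scaled CPM (log axis) of oxygen sensors, HIF targets and genes of glucose and lactate metabolism in each library, with blue points for 21% O2 (4 libraries), red points for 0.5% O2 (3 libraries) and bars for group means. Hif1a lies lower at 0.5% O2, Vhl and Pfkp overlap between the groups, and the other genes lie higher.

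The HIF core ACGTG was searched on both strands in RefSeq promoter windows of GRCm38.p6 that run from 250 bases before to 50 bases after a gene's start. It was found in 2491 of 9664 tested genes with a window (25.8%), in 15 of 31 HIF targets (48.4%) and in 11 of 26 genes of the glucose list (42.3%). Windows of 4 genes that rose are shown 5′ to 3′ along the gene's strand because they carry the core. Capitals mark each ACGTG or its reverse complement CACGT, which share bases where both meet in CACGTG. In Egln3 the match begins 229 bases before the start, in Bnip3 an overlapping pair at 108 and 107, in Ankrd37 at 241 and 6, and in Pgk1 at 150 and 131.
Egln3, chr12:54203825-54204124, minus strand: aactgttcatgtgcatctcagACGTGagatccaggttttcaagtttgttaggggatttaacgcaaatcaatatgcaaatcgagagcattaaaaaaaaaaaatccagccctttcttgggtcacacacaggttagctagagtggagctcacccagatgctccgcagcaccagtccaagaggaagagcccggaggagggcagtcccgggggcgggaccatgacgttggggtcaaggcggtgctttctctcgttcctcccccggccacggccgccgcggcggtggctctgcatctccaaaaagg
Bnip3, chr7:138909457-138909756, minus strand: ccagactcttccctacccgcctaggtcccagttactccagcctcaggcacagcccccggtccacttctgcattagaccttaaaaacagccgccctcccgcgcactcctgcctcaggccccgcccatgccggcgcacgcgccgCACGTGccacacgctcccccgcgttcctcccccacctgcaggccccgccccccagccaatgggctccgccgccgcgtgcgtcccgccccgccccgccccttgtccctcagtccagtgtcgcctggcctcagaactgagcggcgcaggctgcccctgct
Ankrd37, chr8:45999801-46000100, minus strand: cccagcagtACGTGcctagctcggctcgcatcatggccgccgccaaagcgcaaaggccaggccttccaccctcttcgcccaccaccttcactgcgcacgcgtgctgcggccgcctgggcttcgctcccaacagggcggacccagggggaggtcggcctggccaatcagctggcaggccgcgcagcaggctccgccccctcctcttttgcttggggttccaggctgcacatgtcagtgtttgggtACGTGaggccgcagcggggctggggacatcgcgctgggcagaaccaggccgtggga
Pgk1, chrX:106186850-106187149, plus strand: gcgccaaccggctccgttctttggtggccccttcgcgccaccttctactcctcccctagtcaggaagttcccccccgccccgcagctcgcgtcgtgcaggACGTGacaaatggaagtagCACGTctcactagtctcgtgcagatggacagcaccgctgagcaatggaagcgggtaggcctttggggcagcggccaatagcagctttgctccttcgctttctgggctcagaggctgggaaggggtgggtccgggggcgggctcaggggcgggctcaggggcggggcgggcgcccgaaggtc
A match describes the letters in the window and is no evidence of binding in these cells.

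Most tested smooth muscle genes were lower at 0.5% O2. Of 35 smooth muscle genes, 29 were tested, 22 were lower, 4 higher and 3 not called, with a median log2 fold change of -1.45, beside 42.8% lower and 35.2% higher over all tested genes. All 22 falls held under each of the 5 scalings, as did 5144 of the 5288 falls over all tested genes. Both scalings to totals moved changes downward (median shifts of -1.20 and -1.44 from TMM), so a fall is rarely lost. The members Actg2, Cnn1, Lmod1 and Myh11 (4 in all) passed the filter through the normoxic group only. The list's share was 2.32% ± 0.0678 (SD, n = 4) of protein-coding counts at 21% O2 and 0.589% ± 0.0242 (SD, n = 3) at 0.5% O2. Tagln was at 274, 249.6, 273 and 278 CPM at 21% O2 and 13.8, 14.5 and 11.4 CPM at 0.5% O2 (-4.34 ± 0.10 (SE), adjusted p = 1.05e-14). Myl9 was at 442, 424, 473 and 404 CPM at 21% O2 and 4.72, 1.32 and 2.98 CPM at 0.5% O2 (-7.11 ± 0.21 (SE), adjusted p = 2.91e-13), and Mylk at 203, 205, 193 and 207 CPM at 21% O2 and 2.17, 2.03 and 3.07 CPM at 0.5% O2 (-6.38 ± 0.13 (SE), adjusted p = 2.62e-15). For all 3 genes every hypoxic library lay below every normoxic one, by an order of magnitude or more.

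Other members of the list moved both ways. Tpm1, a tropomyosin, was at 1741, 1716, 1712 and 1648 CPM at 21% O2 and 299.7, 346 and 349 CPM at 0.5% O2 (log2 fold change -2.36 ± 0.081 (SE), adjusted p = 5.96e-13). Flna (filamin A) was at 2393, 2469, 2302 and 2369 CPM at 21% O2 and 643, 677 and 754 CPM at 0.5% O2 (-1.79 ± 0.078 (SE), adjusted p = 1.14e-11), and Vcl (vinculin) at 829, 836, 808 and 737 CPM at 21% O2 and 359, 331 and 364 CPM at 0.5% O2 (-1.19 ± 0.077 (SE), adjusted p = 1.24e-09). Smtn (smoothelin) fell by 1.45 and Csrp1, a LIM protein, by 0.72. Srf itself was at 66.4, 60.7, 64.3 and 69.3 CPM at 21% O2 and 54.1, 53.4 and 54.4 CPM at 0.5% O2 (-0.27 ± 0.085 (SE), adjusted p = 0.00883). Myocd, the cofactor that drives SRF at contractile genes, was under the filter. Actg2, the enteric smooth muscle actin, had no count in any hypoxic library and 15.7, 12.01, 14.1 and 15.4 CPM at 21% O2, so it was at least 161-fold lower when 3 counts over the hypoxic group are set as its floor. Cnn1 was at 6.71, 4.38, 5.23 and 4.93 CPM at 21% O2 and 0, 0 and 0.931 CPM at 0.5% O2 (-4.14 ± 0.62 (SE), adjusted p = 1.93e-05), and Myh11 was not called (-1.19 ± 0.71 (SE), adjusted p = 0.136), although it was called lower without the first hypoxic library (-2.85, adjusted p = 0.008). Cnn1 passed the filter through the normoxic group only. Its hypoxic counts all came from the third hypoxic library, so its fold rests on that library. The 4 members that rose were Csrp2 (5.23), Tpm2 (0.76), Tgfb1i1 (0.46) and Tpm4 (0.43). Csrp2 is a LIM protein of smooth muscle and mesenchyme, and was the single one to rise under all scalings.

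**Figure D3:**
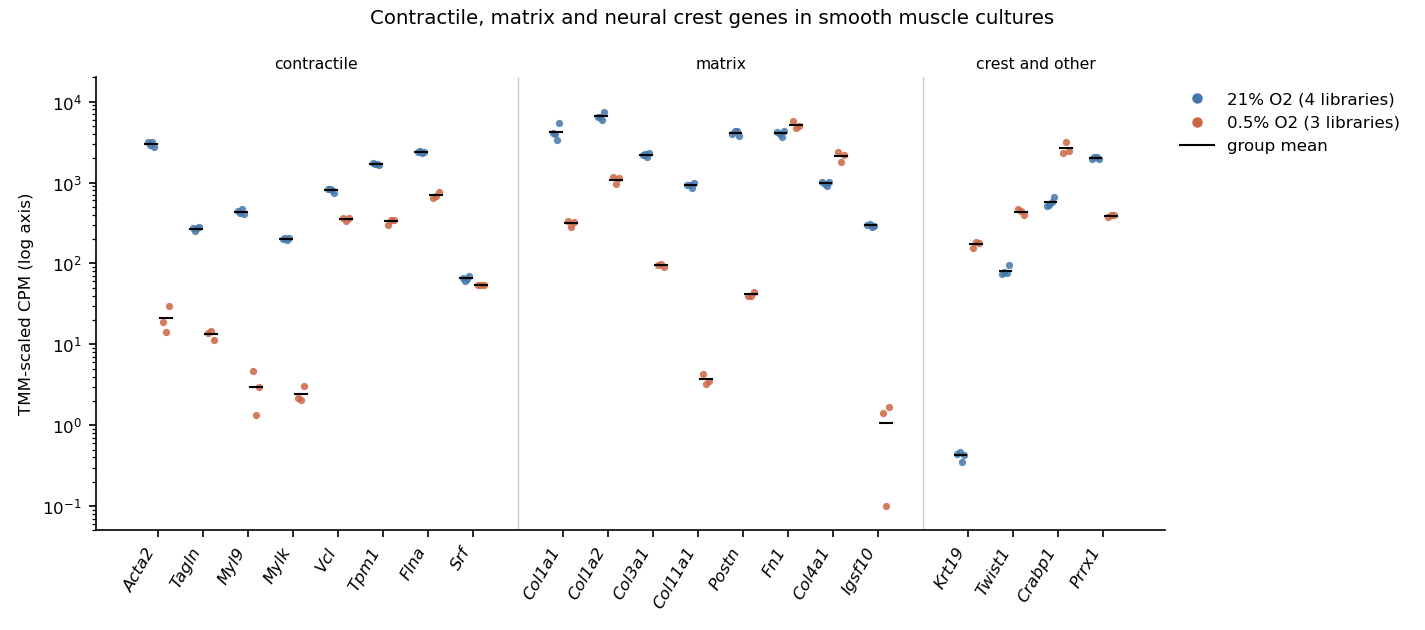
TMM-scaled CPM (log axis) of contractile, matrix and neural crest genes in each library, with blue points for 21% O2 (4 libraries), red points for 0.5% O2 (3 libraries) and bars for group means. Acta2, Tagln, Myl9, Mylk, Col11a1, Postn and Igsf10 lie at least an order of magnitude lower at 0.5% O2, whereas Krt19, Twist1 and Crabp1 lie higher.

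CArG boxes were searched in the same promoter windows. One was found in 131 of 9664 tested genes with a window (1.36%) and in 4 of 23 contractile genes (17.4%). All 4 fell, but so did 19 of the 23, so falling does not set the genes with a box apart. The windows of Myl9 and Vcl are shown because these genes fell by very different amounts (-7.11 and -1.19) with a box in each. Capitals mark the box, which begins 161 bases before the start in Myl9 and 227 bases before it in Vcl.
Myl9, chr2:156775214-156775513, plus strand: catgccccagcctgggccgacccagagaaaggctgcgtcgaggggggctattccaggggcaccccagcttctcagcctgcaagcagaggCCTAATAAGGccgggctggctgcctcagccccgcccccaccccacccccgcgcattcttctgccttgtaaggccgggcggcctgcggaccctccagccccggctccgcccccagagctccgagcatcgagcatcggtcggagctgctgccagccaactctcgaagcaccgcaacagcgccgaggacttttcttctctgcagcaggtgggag
Vcl, chr14:20929148-20929447, plus strand: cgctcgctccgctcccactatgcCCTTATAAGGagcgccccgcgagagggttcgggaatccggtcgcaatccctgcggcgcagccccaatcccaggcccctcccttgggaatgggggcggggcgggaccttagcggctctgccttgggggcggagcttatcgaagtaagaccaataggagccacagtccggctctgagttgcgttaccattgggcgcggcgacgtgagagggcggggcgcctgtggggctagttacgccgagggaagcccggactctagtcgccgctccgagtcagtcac
The other genes with a box were Cnn2, at 56 bases before the start, and Srf, at 82 and 62.

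Most fibrillar collagens and proteins that process them were lower too. Of 29 members, 28 were tested, 19 were lower and 5 higher, with a median of -1.54, beside 42.8% lower and 35.2% higher over all tested genes. All 19 falls held under each scaling, as did 5144 of the 5288 falls over all tested genes. In this list 3 members passed the filter through 1 group only. Their share was 5.46% ± 0.312 (SD, n = 4) of protein-coding counts at 21% O2 and 1.45% ± 0.0459 (SD, n = 3) at 0.5% O2. Col1a1 was at 4040.3, 3934, 3371 and 5395 CPM at 21% O2 and 334, 282 and 323 CPM at 0.5% O2 (log2 fold change -3.74 ± 0.14 (SE), adjusted p = 2.84e-12). Col1a2, the other chain of type I collagen, was at 6396, 6535, 5901 and 7409 CPM at 21% O2 and 1165, 947 and 1153 CPM at 0.5% O2 (-2.59 ± 0.10 (SE), adjusted p = 2.8e-12), and Col3a1 at 2209, 2234, 2071 and 2317 CPM at 21% O2 and 94.3, 97.6 and 91.4 CPM at 0.5% O2 (-4.55 ± 0.086 (SE), adjusted p = 1.74e-15). The type I chains thus fell unequally in the same libraries. Col5a2 fell by 2.73, Col12a1 by 2.42, the small proteoglycan Aspn by 4.88 and Sparc, a collagen-binding glycoprotein, by 1.46. Dcn (decorin) fell by 0.39, a call that was lost without the third normoxic library (-0.32, adjusted p = 0.0543). None of the tested members had near-identical copies or overlapping exons over at least 20% of its transcript or exons.

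The 5 members that rose were P4hb (2.71), Bgn (1.17), Col6a1 (0.53), Bmp1 (0.40) and Fn1 (0.34), and 1 of them, P4hb, rose under all scalings. P4hb is a protein disulfide isomerase and the partner of P4ha1. Fn1 (fibronectin) was at 4227, 3979, 3675 and 4291 CPM at 21% O2 and 5686, 4755 and 4962 CPM at 0.5% O2 (0.34 ± 0.081 (SE), adjusted p = 0.00124), and under scaling to all counts its change was -1.09. Both directions were thus found for Fn1 from the same counts.

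Of 22 elastic fibre genes 16 fell (median -1.12), beside 42.8% of all tested genes, and 3 passed the filter through 1 group only. 3 rose, Efemp1 (1.00), Emilin2 (1.47) and the HIF-regulated lysyl hydroxylase Plod2 (1.84). Eln (elastin) had no count at 0.5% O2 and 2.71, 3.69, 3.76 and 8.47 CPM at 21% O2, at least 52.7-fold lower against the floor of 3 counts. Fbn1 (fibrillin) was at 179, 189, 157 and 199 CPM at 21% O2 and 38.1, 35.3 and 43.00 CPM at 0.5% O2 (log2 fold change -2.22 ± 0.10 (SE), adjusted p = 2.93e-11). Fbln5 fell by 2.59 and Lox, which cross-links collagen and elastin, by 1.59. Of 17 basement membrane genes 7 were higher and 8 lower, near the 35.2% and 42.8% over all tested genes. Col4a1 was at 1019, 952, 913 and 1020.4 CPM at 21% O2 and 2405, 1818 and 2219 CPM at 0.5% O2 (1.14 ± 0.090 (SE), adjusted p = 1.46e-08), while Col4a2, transcribed from the same promoter region in the other direction, was at 867, 805, 739.6 and 889 CPM at 21% O2 and 405, 358 and 367 CPM at 0.5% O2 (-1.13 ± 0.084 (SE), adjusted p = 7.19e-09). Under scaling to all counts Col4a1 changed by -0.30 and Col4a2 by -2.57. Col18a1 (2.27) and Nid1 (1.82) rose, and Nid2 (-4.91), Lama2 (-4.28, which passed the filter through the normoxic group only) and Lama4 (-3.31) fell.

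Transforming growth factor beta drives smooth muscle and matrix genes. Of its 21 ligands, receptors and targets, 12 fell and 5 rose (median -0.95), beside 42.8% lower and 35.2% higher over all tested genes. Among ligands, Tgfb2 was at 23.9, 23.6, 25.00 and 28.3 CPM at 21% O2 and 1.35, 2.74 and 2.05 CPM at 0.5% O2 (log2 fold change -3.66 ± 0.20 (SE), adjusted p = 2.17e-10), whereas Tgfb1 rose by 1.88. Targets split. Thbs1 (thrombospondin), which also activates latent TGF-beta, was at 1931, 1811, 1833 and 2137 CPM at 21% O2 and 93.9, 73.00 and 105 CPM at 0.5% O2 (-4.41 ± 0.13 (SE), adjusted p = 7.2e-14), and Ccn2 fell by 0.95. Tgfbi, a secreted adhesion protein, was at 182, 196, 184 and 155 CPM at 21% O2 and 1263, 1383 and 1314 CPM at 0.5% O2 (2.88 ± 0.086 (SE), adjusted p = 1.25e-13), and Smad7, the inhibitory SMAD, was at 14.3, 16.7, 14.3 and 16.2 CPM at 21% O2 and 153, 59.1 and 86.9 CPM at 0.5% O2 (2.70 ± 0.28 (SE), adjusted p = 2.03e-05).

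Every tested ribosomal protein gene rose. Of 83, 80 were tested and all were higher, by 2.09 to 5.89 with a median of 4.01, and 79 rose under all scalings, beside 35.2% and 10.3% of all tested genes. Their share was 4.27% ± 0.253 (SD, n = 4) of protein-coding counts at 21% O2 and 28.8% ± 0.980 (SD, n = 3) at 0.5% O2. Rplp0, a stalk protein of the large subunit, was at 1784, 1573, 1777 and 1857 CPM at 21% O2 and 22759.6, 24916 and 22879 CPM at 0.5% O2 (log2 fold change 3.75 ± 0.079 (SE), adjusted p = 3.23e-15). Near-identical copies or overlapping exons made 72 of the 80 uncertain, and 70 lay in the shortest of 5 equal bins of transcript length. The 8 members without such copies were also all higher (median 3.81). Tpt1, a short translation-associated transcript, rose by 3.91 and Eef2 by 3.29, with copies over 44.4% and 43.5% of their transcripts.

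Replication-dependent histone genes, whose messages end in a stem-loop in place of a poly(A) tail, took 0.0125% ± 0.000247 (SD, n = 4) of protein-coding counts at 21% O2 and 0.0371% ± 0.00159 (SD, n = 3) at 0.5% O2. Of 38 tested members 24 passed the filter through 1 group only, so no count of calls is read for the list, and 32 share sequence with near-identical copies or overlap other genes. Of 38 replication and mitosis genes 30 were higher and 1 (Rrm1, -0.26) lower, with a median of 0.73, beside 35.2% higher and 42.8% lower over all tested genes. Under scaling to the total of all counts that median was -0.71. Mki67, the proliferation marker, was at 93.02, 87.5, 75.6 and 77.1 CPM at 21% O2 and 129, 84.8 and 116 CPM at 0.5% O2 (0.41 ± 0.12 (SE), adjusted p = 0.00756), a call lost without the first hypoxic library (0.26, adjusted p = 0.0611). Top2a, the mitotic topoisomerase, rose by 0.64, Cdk1 by 0.98 and Ccnb1 by 0.74, while Pcna, the replication clamp, was not called (0.18) unless the first hypoxic library was left out (0.33, adjusted p = 0.00715). Scaling to all counts turned each of these, to -1.03, -0.81, -0.46, -0.70 and -1.27. The share of histone messages, which have no tail, was higher in the same libraries as Rn7sk, and the part of the change in untailed RNA in the histone result was not tested.

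Nuclear genes for oxidative phosphorylation subunits were mostly higher with TMM, 63 of 77, with 7 lower and a median of 1.28, beside 35.2% higher and 42.8% lower over all tested genes. 27 rose and 6 fell under all scalings, and the median under scaling to all counts was -0.16. Those called lower included the complex I subunit Ndufs1 (-0.89) and the succinate dehydrogenase subunits Sdha (-0.43) and Sdhb (-0.45). 66 of the 77 were in the shortest of these length bins.

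Across all tested genes the change was ordered by transcript length. From the shortest to the longest of 5 equal bins (201 to 1825, 1826 to 2734, 2735 to 3727, 3728 to 5211 and 5212 to 123179 bases) the median log2 fold change was 0.79, 0.13, -0.20, -0.48 and -0.79, and the share of genes called higher went from 59.6% to 16.5%. By GC content the medians went from -0.41 in the lowest of 5 bins to 0.34 in the highest. Genes with no near-identical stretch (9276) had a median of -0.27, and those with copies over at least 50% of the transcript (647) had 0.66. The median transcript length was 3386 bases for the contractile list, 3251 bases for the HIF targets and 3892 bases for the collagens. The part of length, base composition or copies in the result of any list was not tested. With the 1831 uncertain genes left out before scaling, an alternative added after seeing the data, 8240 of 10592 genes were called, 3673 higher and 4567 lower.

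**Figure D4:**
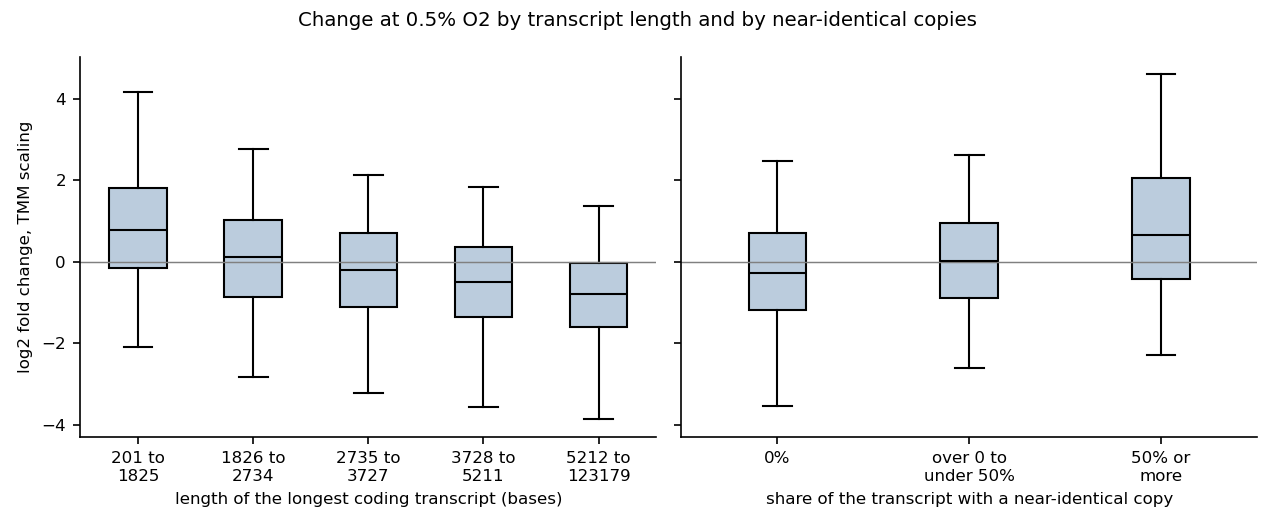
Log2 fold change (0.5% over 21% O2, TMM) of tested protein-coding genes in 5 equal bins of transcript length (left) and by the share of the transcript that has a near-identical copy in another gene (right). Boxes span the quartiles around the median and whiskers the 5th to 95th percentile; the medians fall from 0.79 in the shortest to -0.79 in the longest bin and rise from -0.27 to 0.66 with the share of copies.

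Genes of several stress responses changed. Atf4, the transcription factor of the integrated stress response, was at 137, 125, 131 and 122 CPM at 21% O2 and 1375, 1221 and 1258 CPM at 0.5% O2 (log2 fold change 3.32 ± 0.078 (SE), adjusted p = 7.62e-15). The list of the ATF4 amino acid response, which counts Atf4 itself, had 17 of 27 tested members higher and 3 lower (median 0.87), beside 35.2% higher and 42.8% lower over all tested genes, and 7 rose under all scalings. Atf3 was at 3.05, 2.04, 3.07 and 2.57 CPM at 21% O2 and 56.9, 24.1 and 35.5 CPM at 0.5% O2 (3.86 ± 0.25 (SE), adjusted p = 1.21e-09), and the cystine transporter Slc7a11 rose by 3.83. Asns, the asparagine synthetase, rose by 1.38 with TMM and was at -0.059 under scaling to all counts, while Trib3, a pseudokinase induced by ATF4, was not called (0.23). Chaperones of the endoplasmic reticulum fell in 13 of 21 and rose in 6, beside 42.8% and 35.2% of all tested genes. Hspa5 (BiP) rose by 0.97 with TMM and was at -0.47 under scaling to all counts, and Hsp90b1 (0.082) and Xbp1 (-0.22), a factor of the unfolded protein response, were not called. Xbp1 was called lower without the second hypoxic (-0.26, adjusted p = 0.0347) or the first normoxic library (-0.27, adjusted p = 0.0423).

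Heat shock genes were higher in 13 of 14 (median 1.49), beside 35.2% of all tested genes, 6 of them under all scalings, and Dnaja1 was lower (-0.62). Hspa1a, the inducible HSP70, was at 3.16, 2.95, 2.21 and 4.13 CPM at 21% O2 and 615, 148 and 286 CPM at 0.5% O2 (6.81 ± 0.63 (SE), adjusted p = 0.000141), with the first hypoxic library the highest and copies over 75.7% of the transcript. Immediate early genes rose in 18 of 27 and fell in 4 (median 1.73), against the same background. Fosl1, an AP-1 subunit, was at 6.90, 4.58, 5.55 and 5.87 CPM at 21% O2 and 89.2, 89.2 and 80.6 CPM at 0.5% O2 (3.92 ± 0.13 (SE), adjusted p = 3.24e-13). Myc was at 13.8, 9.75, 10.2 and 15.3 CPM at 21% O2 and 114, 64.2 and 78.00 CPM at 0.5% O2 (2.81 ± 0.20 (SE), adjusted p = 2.07e-08) and Junb rose by 2.52. Egr1, a zinc finger factor, was at 36.6, 41.3, 36.7 and 47.5 CPM at 21% O2 and 298, 63.7 and 118 CPM at 0.5% O2 (1.99 ± 0.53 (SE), adjusted p = 0.0163), again highest in the first hypoxic library. Without that library Hspa1a changed by 6.11 and Egr1 by 1.16 (adjusted p = 0.000419), and under scaling to all counts it was not called (0.57, adjusted p = 0.353).

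Cdkn1a, the cell cycle inhibitor p21, was at 28.2, 28.3, 27.96 and 35.4 CPM at 21% O2 and 408, 385 and 387 CPM at 0.5% O2 (log2 fold change 3.71 ± 0.095 (SE), adjusted p = 2.03e-14). Of 23 tested p53 targets and BCL2 relatives, 15 rose and 8 fell, beside 35.2% higher and 42.8% lower over all tested genes. Under all scalings 7 rose and 8 fell. Mdm2, which degrades p53, rose by 1.55 with TMM but was not called when scaled to all counts (0.11). Bmf (-6.75, through the normoxic group only), Bcl2l11 (-1.77) and Bid (-1.91), which promote apoptosis, and Bcl2 (-2.45), which opposes it, fell. NRF2 targets rose in 12 of 20 and fell in 4 (4 and 4 under all scalings), with the heme oxygenase Hmox1 at 1.41 with TMM and -0.033 under scaling to all counts, and Nqo1 not called (-0.22). Sterol and fatty acid genes rose in 15 of 27 and fell in 9 (4 and 9 under all scalings), and the same shares over all tested genes apply to this and the NRF2 list. Interferon-stimulated genes fell in 16 of 31 and rose in 8 (median -1.11), not far from the 42.8% of all tested genes that were lower, and 8 of them passed the filter through 1 group only. Ifit3, one of these, fell by 3.27 (by 5.05 without the third hypoxic library), and B2m, the light chain of class I antigens, rose by 0.92 with TMM and was at -0.52 under scaling to all counts.

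**Figure D5:**
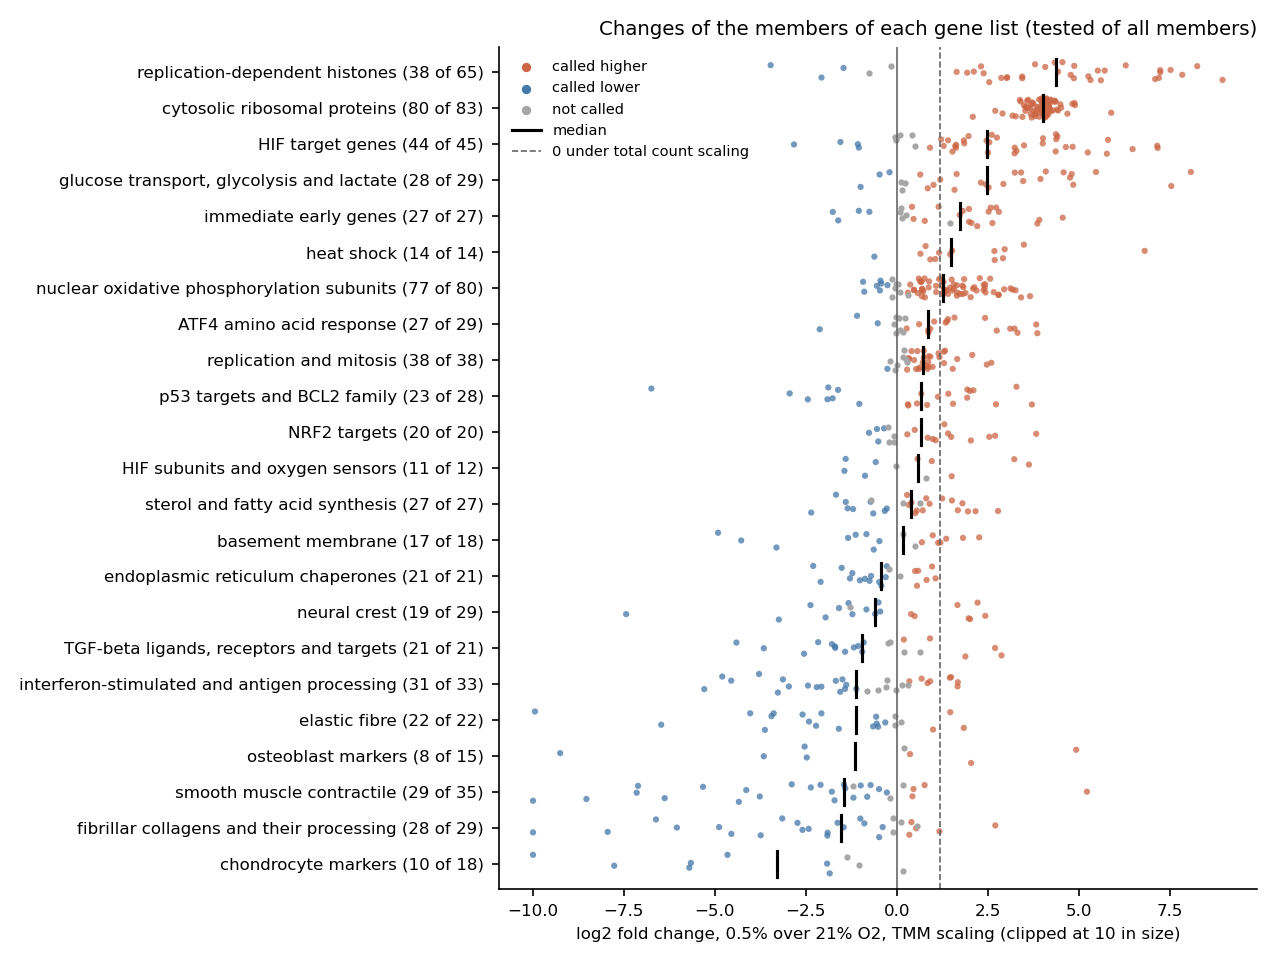
Log2 fold change (0.5% over 21% O2, TMM scaling, values beyond 10 drawn at 10) of each tested member of each gene list, with red for called higher, blue for called lower, grey for not called, a black bar for the list's median and a dashed line where 0 lies when libraries are scaled to the total of the genes left in. Ribosomal protein, HIF target and glucose lists have medians of at least 2.49, right of both lines, and the medians of the collagen and contractile lists lie left of 0.

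Of 19 tested neural crest genes 7 were higher and 11 lower, beside 35.2% and 42.8% over all tested genes, and 2 passed the filter through 1 group only. Twist1, a transcription factor of cranial mesenchyme, was at 73.8, 77.5, 76.3 and 95.9 CPM at 21% O2 and 471, 446 and 393 CPM at 0.5% O2 (log2 fold change 2.43 ± 0.098 (SE), adjusted p = 4.63e-12). Crabp1, a retinoic acid binding protein, was at 518, 524, 579.5 and 661 CPM at 21% O2 and 2343, 3155 and 2484 CPM at 0.5% O2 (2.22 ± 0.11 (SE), adjusted p = 4.39e-11). In the fit over all libraries its mean was 2880.1 CPM in hypoxic smooth muscle medium, 2406 CPM in normoxic and 2839 CPM in hypoxic proliferation medium. Prrx1, another mesenchymal factor, was at 1965, 2046, 2081 and 1936 CPM at 21% O2 and 372, 392 and 398 CPM at 0.5% O2 (-2.37 ± 0.074 (SE), adjusted p = 2.09e-13). Pdgfra, the platelet-derived growth factor receptor of mesenchyme, fell by 1.96, Sox9 by 1.59, Snai2 by 0.83 and Tfap2a by 0.45. Sox10, Pax3 and Foxd3, which mark early crest, were under the filter.

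Markers of other lineages were present at different levels. Summed osteoblast markers were at 652 to 729 CPM at 21% O2 and 797 to 922 CPM at 0.5% O2, and summed chondrocyte markers at 163 to 285 CPM at 21% O2 and 5.99 to 11.9 CPM at 0.5% O2 (TMM-scaled). As a share, the osteoblast sum was 0.102% ± 0.00492 (SD, n = 4) of protein-coding counts at 21% O2 and 0.0545% ± 0.00557 (SD, n = 3) at 0.5% O2, so its direction turns with the scaling. Of 18 chondrocyte genes 10 were tested, and 9 of these passed the filter through 1 group only, so no count is read for the list. Those that fell include Acan (aggrecan, -1.92) and Col2a1, which was 27.2-fold lower on 2 hypoxic counts (95% counting interval 7.44 to 226). Of 15 osteoblast genes 8 were tested, with 4 called lower and 3 higher (1 under all scalings), beside 42.8% and 35.2% over all tested genes. As 4 of the 8 passed through 1 group only, no trend is read from these calls. Runx2, their master regulator, was at 61.3, 66.5, 58.9 and 67.97 CPM at 21% O2 and 69.3, 74.1 and 74.6 CPM at 0.5% O2 and was not called (0.19 ± 0.086 (SE), adjusted p = 0.0566). It was called higher without the first hypoxic (0.21, adjusted p = 0.0462) or the fourth normoxic library (0.22, adjusted p = 0.0327) and with DESeq2's size factors (0.23, adjusted p = 0.0227). Its change was -1.01 when scaled to the total of the genes left in and -1.25 when scaled to all counts. Summed blood cell markers were at 0.934 to 1.59 CPM at 21% O2 and 33.8 to 37.4 CPM at 0.5% O2, almost all of it Cd68 (5.89), with Ptprc under the filter and Csf1r not called (-0.10). Summed endothelial markers were at 47.1 to 56.5 CPM at 21% O2 and 66.4 to 70.2 CPM at 0.5% O2, but their share was 0.00734% ± 0.000590 (SD, n = 4) of protein-coding counts at 21% O2 and 0.00435% ± 0.000245 (SD, n = 3) at 0.5% O2. Of the 4 tested, 2 were called higher (none under all scalings) and 2 lower, beside 35.2% and 42.8% over all tested genes. As 2 of the 4 passed the filter through 1 group only, no trend is read from these calls. Cdh5 was under the filter. Summed epithelial markers were at 2.76 to 4.14 CPM at 21% O2 and 156 to 183 CPM at 0.5% O2, of which nearly all was Krt19. Summed glial and neuronal markers were at 16.8 to 28.7 CPM at 21% O2 and 19.2 to 27.7 CPM at 0.5% O2 (their share was 0.00306% ± 0.000750 (SD, n = 4) of protein-coding counts at 21% O2 and 0.00142% ± 0.000260 (SD, n = 3) at 0.5% O2), adipocyte markers at 54.6 to 69.7 CPM at 21% O2 and 5.69 to 10.7 CPM at 0.5% O2 and skeletal muscle markers at 8.76 to 10.9 CPM at 21% O2 and 2.03 to 2.47 CPM at 0.5% O2, and Myod1 and Myog had no count in these libraries.

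The change in smooth muscle medium was then set against the mean of the same contrast in the other 3 media, in 1 fit over 28 libraries. The difference was called for 9499 of 13259 genes (71.6%), 4295 (32.4%) more positive and 5204 (39.2%) more negative in smooth muscle medium. Scaled to the total of all counts it was called for 10598, of which 1171 were more positive. Low oxygen itself called 7457 genes (56.2%) in proliferation, 2919 (22%) in chondrocyte and 7907 (59.6%) in osteoblast medium.

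Adm, Bnip3 and Pdk1 were also higher at 0.5% O2 in each of the other media, least in chondrocyte medium. For Adm the log2 fold change was 4.02 here and 5.04 in proliferation, 1.62 in chondrocyte and 4.59 in osteoblast medium, a difference of 0.23 ± 0.41 (SE), adjusted p = 0.659. For Bnip3, with copies over 94.2% of its transcript, it was 4.38 here and 4.28 in proliferation, 1.60 in chondrocyte and 4.31 in osteoblast medium (difference 0.94 ± 0.19 (SE), adjusted p = 9.61e-05). For Pdk1 the change here was 2.45 and the other media gave 3.21 in proliferation, 1.73 in chondrocyte and 3.22 in osteoblast medium (difference -0.32 ± 0.12 (SE), adjusted p = 0.0231). Over the list, the difference from the other cultures was called higher for 22 and lower for 10 of 44 members, beside 32.4% and 39.2% of all genes in this fit. Pfkp, which was not called here, rose by 4.52 in proliferation, 1.48 in chondrocyte and 1.63 in osteoblast medium (difference -2.35 ± 0.12 (SE), adjusted p = 2.33e-16). Hif1a changed by 0.28 in proliferation, -0.12 in chondrocyte and 0.66 in osteoblast medium (difference -1.19 ± 0.12 (SE), adjusted p = 3.11e-10).

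Acta2, Postn, Col1a1 and Col11a1 changed more negatively in smooth muscle medium than in the other media. Acta2 changed by -0.52 in proliferation, -0.32 in chondrocyte and -0.92 in osteoblast medium, so the difference was -6.61 ± 0.22 (SE), adjusted p = 1.29e-19. Postn changed by -0.40 in proliferation, 0.24 in chondrocyte and -1.01 in osteoblast medium (difference -6.27 ± 0.18 (SE), adjusted p = 2.34e-22). Col1a1 changed by 0.75 in proliferation, 0.25 in chondrocyte and 0.59 in osteoblast medium (difference -4.31 ± 0.19 (SE), adjusted p = 1.27e-17), and Col11a1 by -0.18 in proliferation, -0.24 in chondrocyte and -0.83 in osteoblast medium (difference -7.57 ± 0.35 (SE), adjusted p = 4.42e-15). Over the contractile list the difference from the other cultures was called higher for 2 and lower for 22 of 31 members (39.2% of all genes in this fit were lower), and over the fibrillar collagens it was called higher for 4 and lower for 19 of 29. Igsf10 was higher at low oxygen in proliferation medium, with changes of 2.22 in proliferation, -1.65 in chondrocyte and 0.37 in osteoblast medium (difference -8.40 ± 0.54 (SE), adjusted p = 4.22e-12). Dhrs9, a short-chain dehydrogenase, was at 68.2, 59.5, 61.6 and 46.2 CPM at 21% O2 and 2.10, 5.18 and 3.26 CPM at 0.5% O2 and rose elsewhere, with 1.55 in proliferation, 1.27 in chondrocyte and 3.71 in osteoblast medium (difference -6.33 ± 0.57 (SE), adjusted p = 1.86e-09).

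The ribosomal protein rise was also larger here, with 80 of 80 members called more positive (32.4% of all genes) and a median difference of 3.65. Rps10 was at 1.01, 0.861, 0.934 and 1.34 CPM at 21% O2 and 74.4, 61.5 and 48.96 CPM at 0.5% O2 and changed by -0.93 in proliferation, 0.087 in chondrocyte and 0.17 in osteoblast medium (difference 6.08 ± 0.25 (SE), adjusted p = 5.07e-19), with copies over 58.1% of its transcript. Hspa1a changed by 0.58 in proliferation, 0.63 in chondrocyte and -0.19 in osteoblast medium (difference 6.43 ± 0.42 (SE), adjusted p = 4.71e-12). Upp1, which has no near-identical copy, changed by 1.95 in proliferation, 1.26 in chondrocyte and 2.93 in osteoblast medium (difference 5.50 ± 0.83 (SE), adjusted p = 3.09e-06). Its means in this fit at 0.5% O2 were 142, 125, 0.735 and 0.575 CPM in smooth muscle, proliferation, chondrocyte and osteoblast medium. At 21% O2 they were 0.763, 32.2, 0.268 and 0.0690 CPM in turn. Krt19 changed by 6.28 in proliferation, 1.78 in chondrocyte and 2.33 in osteoblast medium, and its difference was 5.14 ± 1.32 (SE), adjusted p = 0.00161. In the same order of media, Krt19 means were 186, 301, 17.6 and 96.5 CPM at 0.5% O2 and 0.471, 3.93, 5.12 and 19.0 CPM at 21% O2. A high hypoxic level of Krt19 or Upp1 was thus not particular to smooth muscle medium. Twist1 changed by -0.36 in proliferation, 0.20 in chondrocyte and 0.55 in osteoblast medium (difference 2.26 ± 0.13 (SE), adjusted p = 1.86e-15).

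Some genes were counted at 1 oxygen level only, and those named were chosen after their values were seen. Of 21888 protein-coding genes, 12 had no count in the 4 normoxic libraries and at least 10 in each hypoxic one. Cx3cr1, the receptor of fractalkine known from microglia and monocytes, was at 306, 287 and 458 CPM at 0.5% O2, at least 17568-fold higher against a floor of 3 counts over the normoxic group, and no other library held more than 4 counts of it. Ptprc, the common leukocyte antigen, was under the filter in the same libraries. Wnt1, a signal of the midbrain and neural crest border, was at 18.5, 29.7 and 23.8 CPM (at least 1182-fold higher), and Mc1r, the melanocortin receptor of pigment cells, at 8.17, 20.4 and 6.61 CPM. 6 of the 12 were under 10 counts in each of the other 21 libraries. The reverse pattern held for 153 genes. Col10a1, the collagen of hypertrophic cartilage, was at 249, 229.8, 229.5 and 124 CPM at 21% O2 (at least 2355-fold lower at 0.5% O2), Islr, a marker of mesenchymal stroma, at 78.01, 79.2, 79.1 and 88.9 CPM, and Fmod (fibromodulin) at 30.02, 28.01, 27.4 and 51.7 CPM. 8 of the 153 were under 10 counts in each of the other libraries.

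The authors' deposited table of the same contrast held values for 13498 protein-coding genes. At its p-value under 0.05, 4403 were higher and 5602 lower at 0.5% O2 in the authors' deposited table, and its median log2 fold change was -0.18. Of the 12355 genes tested here, 12133 (98.2%) had the same sign in the authors' deposited table, and no called gene had the other sign. It comes from the same libraries and is not independent evidence.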

How the data were processed

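Poly(A) RNA of 28 libraries of O9-1 cells was sequenced after a stranded library kit, per the labels' protocols. The authors deposited a table of whole-number counts per gene. HISAT2 2.0.5, StringTie 1.3.3b, featureCounts 1.5.0-p3 and mm10 are named in the submitters' processing notes, without their roles. Whether counting used strand, and how reads with several matches were handled, is not given in the sources used here. The authors' deposited table of the contrast gives log2 fold changes and p-values, per the file headers. 70 columns of per-sample values in other tables were not used.

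Identifiers of 54429 genes were matched to GENCODE M21 (54393 matched, 36 did not). The 37 mitochondrial genes and 13113 pseudogenes were left out, which left 41279 genes for scaling. Counts of the 7 libraries were tested with edgeR 4.0.16 (R 4.3.3; filterByExpr, TMM, robust quasi-likelihood F test, two-sided, Benjamini-Hochberg over all genes fitted), and called at an adjusted p under 0.05. Fold changes are log2 values from this fit. The protein-coding library depth in units of 1e+06 counts was 24.7 to 27.8 at 21% O2 and 15.9 to 20.4 at 0.5% O2. No pair of replicates was alike within counting noise. The difference from other cultures was a contrast in 1 fit over 28 libraries. Alternatives were DESeq2 1.42.0, limma 3.58.1 (voom), 4 other scalings, other filters, a replicate block and leaving out each library. On simulated data for 13605 genes, 99 of 100 changes of log2 size 1 and 100 of 100 of size 2 were recovered, and 11 unchanged genes were called. A gene was called uncertain where at least 20% of its longest transcript matched transcripts of other genes at 95% identity over stretches of at least 100 bases, or 20% of its exon bases lay in exons of another gene.

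Genes were named by rule. These were the 8 largest rises and falls with at least 10 mean counts in both groups, no overlap between groups and 1 sign under all scalings, the 6 largest differences in level each way under the same conditions, listed members fixed by hand, and the 5 largest differences each way from the other cultures. A few of the listed members are not reported here. Other members of small counts, and the genes counted at 1 oxygen level only, were named after their values were seen. The comparison, the lists and their members were chosen with earlier results of these data known. Floors cover counting error only.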

Additional observations from a re-analysis of the deposited data

Results flagged for a closer look

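In 7 of 122 sets of 4 normoxic libraries checked, 1 library lay apart from the others by Dixon's test, and chance gives about 1 in 20 such sets. The fourth normoxic library was the high one for Sparc (1960 CPM, the others 1620 to 1626), Hspa5 (509 CPM, the others 411 to 417), Cdkn1a (35.4 CPM, the others 28 to 28.3), Twist1 (95.9 CPM, the others 73.8 to 77.5) and Alpl (4.48 CPM, the others 2.26 to 2.48). The third was high for Tpt1 (2556 CPM, the others 2234 to 2266) and the second for Slc7a11 (1.11 CPM, the others 0.447 to 0.534). Each of these genes kept its call in the hypoxia contrast without the library concerned.

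The low oxygen change in smooth muscle medium differed from the mean of the other 3 media by a tested contrast. The log2 difference was 6.43 for Hspa1a, 6.08 for Rps10, 6.07 for Gapdh, 5.50 for Upp1 and 5.44 for Etnk2, an ethanolamine kinase. Near-identical copies cover much of the transcript of the first 3. Etnk2 had no count in 1 of the groups, so the size of its difference depends on the fit. The difference was -8.40 for Igsf10, -7.57 for Col11a1, -6.61 for Acta2, -6.33 for Dhrs9 and -6.27 for Postn.

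Outside the protein-coding genes, mitochondrial ribosomal RNA took 12.4% of the counts in hypoxic smooth muscle libraries (mean of 3) and 0.0692% in normoxic ones (mean of 4). Pseudogenes took 3.35% against 1.002%, and Rn7sk 0.0724% against 0.000760%. In hypoxic proliferation, chondrocyte and osteoblast libraries mitochondrial ribosomal RNA took 0.0857%, 0.0567% and 0.0817%.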

How the results depend on the processing

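Scaling to the total of all deposited counts raised the genes called at 2-fold or more from 5850 to 8823, of which 748 were higher, and scaling to the total of the genes left in gave 8204, of which 906 were higher. Under the first of these scalings the difference from the other cultures was called for 10598 genes (1171 more positive) and under the second for 10298 (1528 more positive), beside 9499 (4295). Scaled to the genes left in, these named genes changed sign: Pfkp -0.97, Fn1 -0.85, Col4a1 -0.057, Mki67 -0.79, Top2a -0.56, Mcm5 -0.46, Pcna -1.02, Rrm2 -0.59, Cdk1 -0.22, Ccnb1 -0.46, Trib3 -0.96, Hspa5 -0.23, Hsp90b1 -1.11, Fasn -1.03, B2m -0.28, Runx2 -1.01 and Tubb3 -0.21. These list medians did so too: HIF subunits and oxygen sensors -0.63, basement membrane -1.01, replication and mitosis -0.47, ATF4 amino acid response -0.33, p53 targets and BCL2 family -0.52, NRF2 targets -0.53 and sterol and fatty acid synthesis -0.80. Scaled to all counts, the genes were Pfkp -1.21, Fn1 -1.09, Col4a1 -0.30, Mki67 -1.03, Top2a -0.81, Mcm5 -0.70, Pcna -1.27, Rrm2 -0.83, Cdk1 -0.46, Ccnb1 -0.70, Chac1 -0.098, Trib3 -1.20, Asns -0.059, Hspa5 -0.47, Hsp90b1 -1.36, Hmox1 -0.033, Fasn -1.28, B2m -0.52, Runx2 -1.25 and Tubb3 -0.46, and the medians HIF subunits and oxygen sensors -0.87, basement membrane -1.26, nuclear oxidative phosphorylation subunits -0.16, replication and mitosis -0.71, ATF4 amino acid response -0.57, p53 targets and BCL2 family -0.77, NRF2 targets -0.77 and sterol and fatty acid synthesis -1.04. The median of the osteoblast list was 0.24 when at least 10 counts were required in every library. The median log2 fold change, HIF subunits and oxygen sensors, ranged from -0.0287 without the first hypoxic library to 0.57 without the third.

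The other alternatives kept each count within 1.5 times its main value. List medians moved by more than the spread between libraries for 12 of 23 lists with no filter, 9 without genes that have near-identical copies or overlapping exons and 5 with at least 10 counts in every library, and the median over all tested genes was -0.27, -0.18 and -0.083 in turn. Genes called numbered 9722 with DESeq2, 9651 with limma-voom, 10214 with no filter, 8482 with at least 10 counts in every library, 9671 with mitochondrial genes and pseudogenes kept and 9658 with protein-coding genes only. Leaving out 1 library gave 9111 to 9707 called genes, 5664 to 6039 at 2-fold or more and 9210 to 9352 for the difference from the other cultures. Replicate numbers did not pair the libraries (correlations of same-numbered deviations -0.028, -0.014 and -0.013). With the replicate block 8944 genes were called, 5668 at 2-fold or more, and 9488 for the difference, and Srf (adjusted p = 0.0584), Egr1 (0.105), Tubb3 (0.0664) and the minor identifier of Aldoa (0.0743) lost their calls. Without genes that have near-identical copies or overlapping exons, chosen after seeing the data, 8240 genes were called, 4930 at 2-fold or more, and 8026 for the difference, and 8043 calls were shared. Pfkp and Runx2 were called higher with DESeq2's test (0.27 and 0.23), its size factors, protein-coding genes only (0.28 and 0.24) and without genes with copies or overlaps (0.29 and 0.25). Xbp1 and Isg15 were called lower with the upper quartile (-0.26 and -0.85), with mitochondrial genes and pseudogenes kept (-0.29 and -0.89) and with no filter (-0.32 and -0.92), and Xbp1 with at least 10 counts in every library (-0.25). Vhl, Myh11, Xbp1, Nqo1, Isg15 and Pparg were called lower under both totals. Mdm2 was not called when scaled to all counts (0.11, adjusted p = 0.329), nor were Egr1 and Pecam1 under either total. Isg15 was called without the first hypoxic library (-1.27), Fasn without the second (0.29), and Tubb3 was not called without the second (0.50, adjusted p = 0.0964). The causes of these changes were not tested. At 3 against 4 libraries the simulated data, with few and balanced changes, recovered 99 of 100 changes of log2 size 1. Recovery was not split by level, so where depth limits a call was not measured.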
